A study of Saccharomyces cerevisiae S288C with 71 samples.

Results

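The genes described here encode the subunits of the nuclear RNA polymerases I, II and III of the budding yeast Saccharomyces cerevisiae S288C. They were taken from the table by name, as every row whose symbol reads RPA, RPB or RPC followed by digits, together with RPO21, RPO26, RPO31 and RET1. This gave 31 of the 5803 genes in the table, and all 31 passed the filter on low values. By the complex that holds each product, 7 genes belong to polymerase I alone, 7 to polymerase II alone and 10 to polymerase III alone, 2 are shared by polymerases I and III, and 5 are common to all 3. The letter in a symbol is not the complex: RPB5, RPB8, RPB10 and RPC10 are common subunits, and RPC40 and RPC19 serve polymerase I as well as polymerase III.

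RNA was sequenced from 12 strains at 0, 12 and 16 h, a course that runs over the wild type's diauxic shift, the passage from fermenting glucose to respiring the products of fermentation. All strains were S288C and grew at 30 C with shaking in yeast nitrogen base with ammonium and 2% glucose, and the 0 h cells were in log phase. The strains were the wild type (wt), the electron transport chain deletions coq2Δ and cox4Δ, the deletions ras2Δ, rts1Δ and tco89Δ, which the labels describe as relieving the starvation death of such mutants, and the 6 double deletions of one from each set; the Δ is left off below. COQ2 encodes an enzyme that makes coenzyme Q, and COX4 encodes a part of cytochrome c oxidase. RAS2 encodes a GTPase that activates adenylate cyclase, TCO89 a subunit of the TORC1 kinase complex, and RTS1 one of the regulatory subunits that direct protein phosphatase 2A. Each of the 36 groups of strain and time had 2 libraries except cox4 rts1 at 16 h, which had 1.

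Polymerase I makes the precursor of the large ribosomal RNAs, polymerase III makes transfer RNAs and the smallest ribosomal RNA, and polymerase II makes messenger RNAs. The enzymes are built alike. A pair of large catalytic subunits sits on an assembly platform with the common subunits, a stalk of paired subunits stands to the side, and polymerases I and III carry built-in counterparts of factors that polymerase II recruits. In growing yeast most transcription serves ribosome production, and the genes for the subunits of polymerases I and III are commonly counted with the ribosome biogenesis genes, which are shut down when nutrients run short through TORC1 and protein kinase A signalling.

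Abundance is given in TPM, a length-normalised transcript abundance scaled to a fixed library total and so a share of the library, so levels can be set side by side between genes. TPM carries no read depth, and it measures a share: less polymerase RNA per cell and more of other RNA cannot be told apart. A gene is said to have risen or fallen where limma gave an adjusted p under 0.05 over all 5766 genes tested and the change of log2(TPM + 1) was at least 2-fold, and such genes are called below. The same counts were also made after median-ratio scaling, which centres the libraries on their typical gene. Across libraries of a group the correlation over genes was 0.986 to 0.998. COQ2, RAS2, RTS1 and TCO89 lay at 0.1 to 2.95 TPM in the libraries that lack them. COX4 lay at 0.115 to 3.18 TPM in its deletion strains apart from 3 libraries of 16 h: a cox4 tco89 library held 72.3 TPM, a cox4 library 10.8 TPM and the only cox4 rts1 library 8.57 TPM. Transcripts of 4 alpha-cell genes summed to between 3502 and 7297 TPM at 0 h and those of 5 a-cell genes to between 27.5 and 59.9 TPM. At 16 h the alpha-cell sum was 123 to 429 TPM and the a-cell sum 104 to 226 TPM, so the ranges overlapped.

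In the wild type, the transcripts of polymerase I subunits fell furthest across the shift. At 16 h, 6 of the 7 were lower than at 0 h, with a median log2 change of -3.13, against -0.24 over all genes. RPA49, which with RPA34 forms a dimer related to polymerase II initiation factors, stood at 92.5 and 79.8 TPM at 0 h, at 8.08 and 7.14 TPM at 12 h and at 4.27 and 5.23 TPM at 16 h. Both late pairs lay far below the 0 h pair. The fall from 0 to 16 h was 15.2-fold, or -3.92 ± 0.24 on the log2 scale (SE; limma adjusted p = 9.2e-19). RPA43, the core of the polymerase I stalk and the contact for the initiation factor Rrn3, went from 80.5 and 75.6 TPM to 6.26 and 6.19 TPM at 12 h and 4.32 and 6.63 TPM at 16 h, a 12.4-fold fall (-3.63 ± 0.22, adjusted p = 6.9e-19).

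RPA34 stood at 135 and 126 TPM at 0 h and 12.7 and 14.7 TPM at 16 h, 8.95-fold lower (adjusted p = 4e-18). RPA12, the subunit for RNA cleavage, went from 139 and 136 to 16.1 and 13.7 TPM, 8.74-fold lower (adjusted p = 1.8e-15). The pair of catalytic subunits had smaller falls, RPA135 close to that of RPA12, and genes were not tested against each other. RPA135 went from 64.9 and 59.5 to 7.37 and 7.44 TPM, 7.51-fold lower (adjusted p = 2e-19), and RPA190, the largest subunit, from 27.1 and 21.9 to 4.52 and 4.67 TPM, 4.54-fold lower (adjusted p = 2e-17). RPA14, the second stalk subunit, was the exception. Its 0 h libraries held 126 and 156 TPM, its 12 h libraries 52.1 and 48.1 TPM and its 16 h libraries 84.3 and 85.1 TPM. It was 2.77-fold lower at 12 h (adjusted p = 2.2e-08), and at 16 h its change of -0.72 ± 0.21 was under 2-fold. RPA14 overlaps the open reading frame YDR157W on the same strand, and the sources used here do not say how reads there were divided.

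The subunits that polymerase I shares fell with it. RPC40 and RPC19, the assembly platform of polymerases I and III, went from 164 and 144 to 30.8 and 28.2 TPM and from 202 and 222 to 42.1 and 49.4 TPM at 16 h, 5.08- and 4.56-fold lower (adjusted p = 3.2e-16 and 8e-21). Of the 5 common subunits, 4 were lower at 16 h. RPB5 went from 224 and 188 to 38.2 and 34.1 TPM, RPB8 from 421 and 415 to 79.9 and 71.1 TPM, and RPO26 from 412 and 429 to 98.3 and 93.2 TPM, falls of 5.57-, 5.48- and 4.36-fold. RPO26 and RPB8 had the highest TPM of the 31 genes in wt at 0 h. RPB10, a small zinc-binding subunit, fell 2.60-fold, and RPC10, another, moved by -0.85 ± 0.13 on the log2 scale, which is less than 2-fold.

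Polymerase II was divided. Of its 7 own subunits 3 were lower at 16 h, and the median log2 change was -0.53. RPB2, the second largest subunit, went from 40.9 and 35.4 to 12.1 and 12.4 TPM, RPB3 of the assembly platform from 125 and 118 to 39.9 and 39.9 TPM, and RPB9, which takes part in proofreading and start site choice, from 129 and 104 to 31.2 and 38.6 TPM. These are falls of 2.95-, 3.00- and 3.26-fold. RPO21, the largest subunit, held 40.3 and 40.2 TPM at 0 h and 29.1 and 26.1 TPM at 16 h, a change of -0.53 ± 0.10 that stayed under 2-fold. The stalk genes moved least. RPB4 held 213 and 207 TPM at 0 h, 169 and 176 TPM at 12 h and 201 and 196 TPM at 16 h (-0.08 ± 0.09, adjusted p = 0.4; 0.23 with median-ratio scaling), and RPB7 went from 154 and 133 to 117 and 112 TPM (-0.32 ± 0.11). RPB11, the partner of RPB3, fell at 12 h, from 223 and 259 to 109 and 116 TPM, a call lost with median-ratio scaling or without the 0 h library with 259 TPM. At 16 h it held 157 and 175 TPM, 1.45-fold under its 0 h level.

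Polymerase III was divided as well, with 6 of its 10 own subunits lower at 16 h and a median log2 change of -1.23. The stalk genes RPC25 and RPC17 fell 5.20- and 3.09-fold: RPC25 went from 75.4 and 68.8 to 11.9 and 14.3 TPM, and RPC17 from 46.8 and 45 to 15.4 and 13.0 TPM. RPC31 and RPC34, of the trimer that opens the promoter, went from 81.5 and 75.5 to 20.6 and 19.0 TPM and from 46.0 and 41.8 to 20.01 and 22.3 TPM, 3.82- and 2.03-fold lower. The call of RPC34 was lost without the library with 46.0 TPM at 0 h, without the one with 20.01 TPM at 16 h, or with median-ratio scaling. RPC82, the largest subunit of the same trimer, moved by -0.40 ± 0.14 and did not pass. RPC53 and RPC37 form the dimer that aids termination, and they parted: RPC53 went from 44.4 and 43.1 to 16.4 and 14.4 TPM, while RPC37 held 51.2 and 54.2 TPM at 0 h and 57.2 and 53.3 TPM at 16 h (0.07 ± 0.18, adjusted p = 0.74). RPC11, for RNA cleavage, fell 2.83-fold. The catalytic genes were low from the start and moved by less than 2-fold, RPO31 from 15.01 and 13.3 to 9.08 and 9.28 TPM and RET1 from 18.5 and 14.9 to 11.4 and 9.80 TPM.

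**Figure D1:**
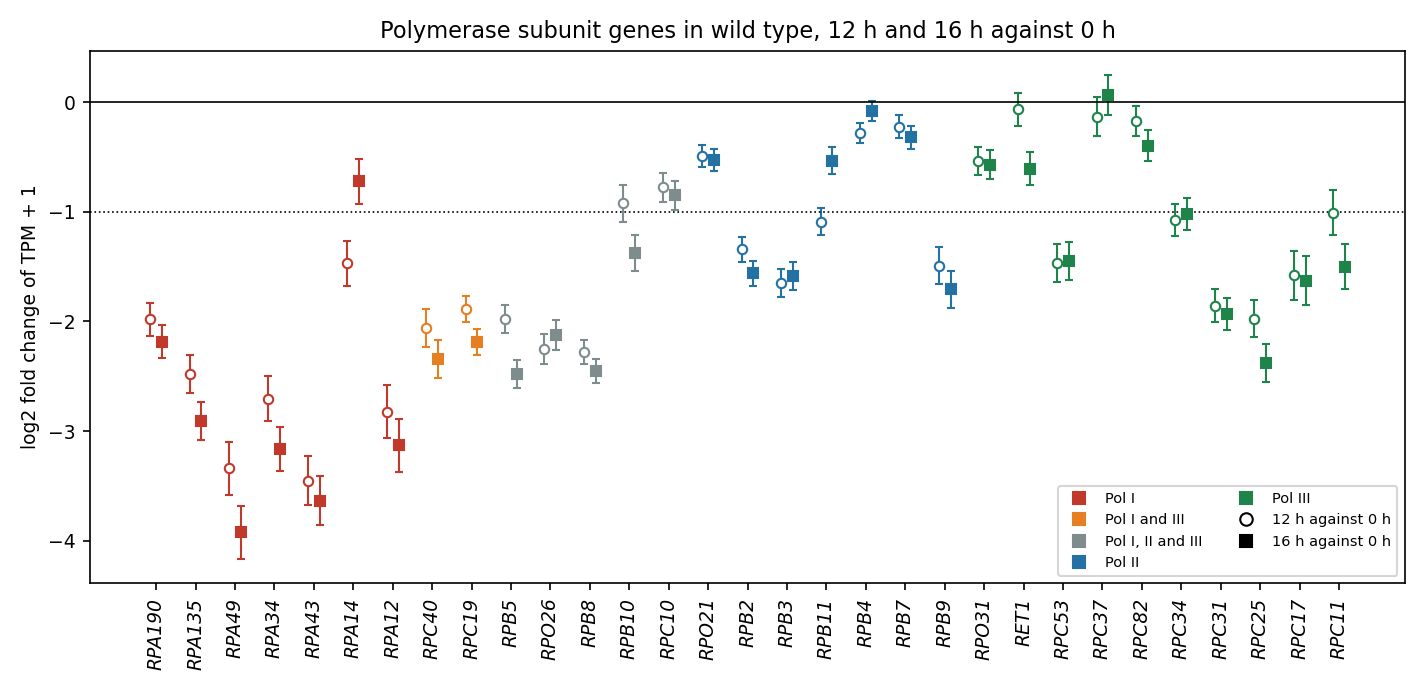
Log2 fold change of TPM + 1 in wt at 12 h (open circles) and 16 h (filled squares) against 0 h for the 31 subunit genes, coloured by the polymerases that hold the product; bars are the standard error from limma and the dotted line is a 2-fold fall. RPA49 and RPA43 of polymerase I lie lowest at 16 h, at -3.92 and -3.63, and RPB4 and RPC37 lie near 0.

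Over all subunits, 21 of 31 were lower at 16 h than at 0 h, where 28.9% of all genes were, and none was higher. At 12 h 22 of 31 were lower, with 27.7% of all genes. By polymerase the 12 h counts were 7 of 7 for polymerase I, 4 of 7 for polymerase II and 6 of 10 for polymerase III, with both subunits of the shared platform and 3 of the 5 common subunits. Against median-ratio scaling the TPM scale had moved by -0.26 and -0.28 (log2) at these times. With that scaling 19 were lower at 12 h and 20 at 16 h, each with 21.9% of all genes. From 12 to 16 h no subunit was called by limma, where 0.382% of genes were, and 12 of the 31 had an unadjusted p under 0.05. The gap between polymerases II and III at 16 h rests on the grouping by complex. With genes grouped by the letter of the symbol, the median change at 16 h was -1.56 for the B genes and -1.5 for the C genes. At 12 h no such gap was seen by complex, with medians of -1.09 for polymerase II and -1.04 for polymerase III.

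Genes that act with the polymerases moved less uniformly, and their counts are to be read against the 28.9% of all genes that were lower and the 17.7% that were higher. Among 10 genes for polymerase I initiation, 4 were lower at 16 h: RRN11, RRN9 and RRN7, which encode core and upstream promoter factors, and NET1 of the nucleolus, with log2 changes of -1.77, -1.55, -1.03 and -1.21. Of these RRN7 and NET1 passed no longer after median-ratio scaling. Among 9 genes for polymerase III initiation, PZF1, TFC8 and TFC4 were lower (-1.44, -1.32 and -1.06), a share near that of all genes, and TFC4 passed no longer after median-ratio scaling. These encode the factor for the smallest ribosomal RNA gene and parts of TFIIIC. Among 23 genes for general polymerase II initiation and elongation factors, TAF14 was lower (-1.27), SSL2 and TFA2 were higher (1.51 and 1.04), and the median change was 0.35. After median-ratio scaling none of the 23 was lower (21.9% of all genes). With that scaling 6 were higher, a count for which the share of all genes is not given here. Of 12 genes for polymerase assembly and nuclear import, the ATPases RVB2 and RVB1 and the GTPase GPN3 were lower (-1.96, -1.79 and -1.40) and IWR1, which carries polymerase II into the nucleus, was higher (1.82).

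Among 9 regulators, DOT6 and CRF1 were higher at 16 h. DOT6 encodes a repressor of ribosome biogenesis genes that binds the PAC sequence. It stood at 77.4 and 85.4 TPM at 0 h, 424 and 456 TPM at 12 h and 589 and 536 TPM at 16 h, a 6.84-fold rise (2.77 ± 0.11, adjusted p = 7.2e-26). CRF1, a corepressor of ribosomal protein genes, rose 5.76-fold. TOD6, the relative of DOT6, moved by 0.15 ± 0.12, STB3, which encodes a protein that binds the RRPE sequence, by 0.45 ± 0.12, and MAF1, the repressor of polymerase III, by -0.10 ± 0.14, none of them past the threshold.

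PAC is named for polymerases A and C, the older names of I and III, because it was first seen before their genes. It was looked for as GCGATGAG and by its core GATGAG, on both strands, in the 300 bases before each start codon of the R64 reference genome from RefSeq, so each full match is a core match too. The core was present before 6 of 7 polymerase I genes, 8 of 10 polymerase III genes and both platform genes that these enzymes share, and before none of the 7 polymerase II genes or the 5 common genes. Of the same windows before all 6020 nuclear protein-coding genes 19.1% held it. The full form was present before 7 of the 31 genes and 4.04% of all genes. The windows are shown around the 7 full matches, each on the strand that reads the motif 5′ to 3′, with the motif in capitals, since these are the genes whose PAC is complete.
RPA49, chrXIV:182722-182751, minus strand: aattttttattGCGATGAGctgaaattttc
RPC40, chrXVI:746902-746931, minus strand: aaaaaattattGCGATGAGttgaaagaaaa
RPC19, chrXIV:412631-412660, plus strand: aatattcacctGCGATGAGctggaaaaaaa
RPC25, chrXI:176657-176686, plus strand: aaaaattttaaGCGATGAGcatcgcctgaa
RPC31, chrXIV:348586-348615, plus strand: tataggttgctGCGATGAGgaaactatttt
RPC82, chrXVI:919145-919174, plus strand: tttccttcaatGCGATGAGcttttgaaaaa
RPC37, chrXI:487495-487524, minus strand: ttgaaaaatttGCGATGAGcttaggaaaat

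The core alone stood before RPC53 and RPC34, which fell, and before RPA14, RPO31 and RET1, which did not pass at 16 h. It also stood before other polymerase I genes that fell strongly. Only these last are shown, in the same way, to set its flanks beside those of the full form. The windows of RPA135 and RPA190 each hold 2 overlapping cores, of which 1 is in capitals.
RPA43, chrXV:960347-960376, minus strand: tgaaaagattccGATGAGggtgtatgggtg
RPA34, chrX:140315-140344, plus strand: aaaaattttatcGATGAGcattgaatagct
RPA135, chrXVI:581288-581317, plus strand: attaagagatgaGATGAGtctctaagatgc
RPA190, chrXV:960803-960832, minus strand: tttaagagatgaGATGAGatttgaaataaa

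The 5 full matches before genes that fell, RPA49, RPC40, RPC19, RPC25 and RPC31, have the same letters as those before RPC82 and RPC37, which did not pass. Over all subunits, 11 of the 16 genes with the core were lower at 16 h in the wild type (median log2 change -2.06) and 10 of the 15 without it (median -1.56). RPA12 and the common subunits had no core and RPA12, RPB5, RPO26, RPB8 and RPB10 fell. RRPE, searched as AAAAATTTT, stood before 16 of the 31 genes and 7.31% of all genes, including 6 of 7 polymerase I genes. The sequence of the factor Reb1, TTACCCG, was before 5 genes (7.87% of all genes), and that of Abf1 before 10 (9.72%), among them 4 of the 5 common subunits and both platform genes. The windows before RPA49, RPB9, RPC25 and RPO26 reach into the neighbouring gene. RPA43 and RPA190 stand head to head on chromosome XV with 804 bases between their start codons, and both fell.

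The order of the polymerases in the wild type was seen in most of the other strains. From 0 to 16 h the median of the polymerase I genes fell most of the 3 in 12 of 12 strains, with strain medians from -3.76 in cox4 to -1.04 in ras2. The median of polymerase III fell more than that of polymerase II in 9 of 12 strains, the exceptions being ras2, rts1 and coq2 ras2. RPA135, RPA49, RPA34, RPA43, RPA12, RPB3, RPC40, RPB5, RPO26 and RPB8 were lower in all 12 strains; after median-ratio scaling only RPA43 was, and the others were lower in 9 to 11. RPB4, RET1, RPC37 and RPO21 were lower in none. The shares of all genes lower in all 12 strains or in none were not counted. RPO21 was higher in cox4 rts1, where the only 16 h library, with COX4 at 8.57 TPM, held 72.0 TPM and the 0 h libraries 32.2 and 34.1 TPM (20.4% of all genes were higher there).

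The number of subunits that were lower differed between strains. It was 27 of 31 in coq2, where 38.8% of all genes were lower, 25 in cox4 (36.5%), 26 in cox4 tco89 (45.5%), 22 in tco89 (23.2%), 22 in coq2 rts1 (30.1%), 22 in coq2 tco89 (26.7%) and 21 in cox4 rts1 (28.9%). It was least in ras2, with 12 (18.6% of all genes), and in rts1 and coq2 ras2, with 14 each (20% and 23.3%); cox4 ras2 had 17 (31.4%). After median-ratio scaling the counts in the ras2 strains shrank to 4 in ras2 (12.7%), 3 in coq2 ras2 (14.5%) and 11 in cox4 ras2 (21.1%), and in the last strain 2 subunits, RPO21 and RPC37, were higher (22%). The median change of all genes in TPM ran from -0.03 in rts1 to -0.84 in cox4 tco89. The counts of cox4 and cox4 tco89 were 26 and 26 without the library in which COX4 was found at 10.8 or 72.3 TPM.

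**Figure D2:**
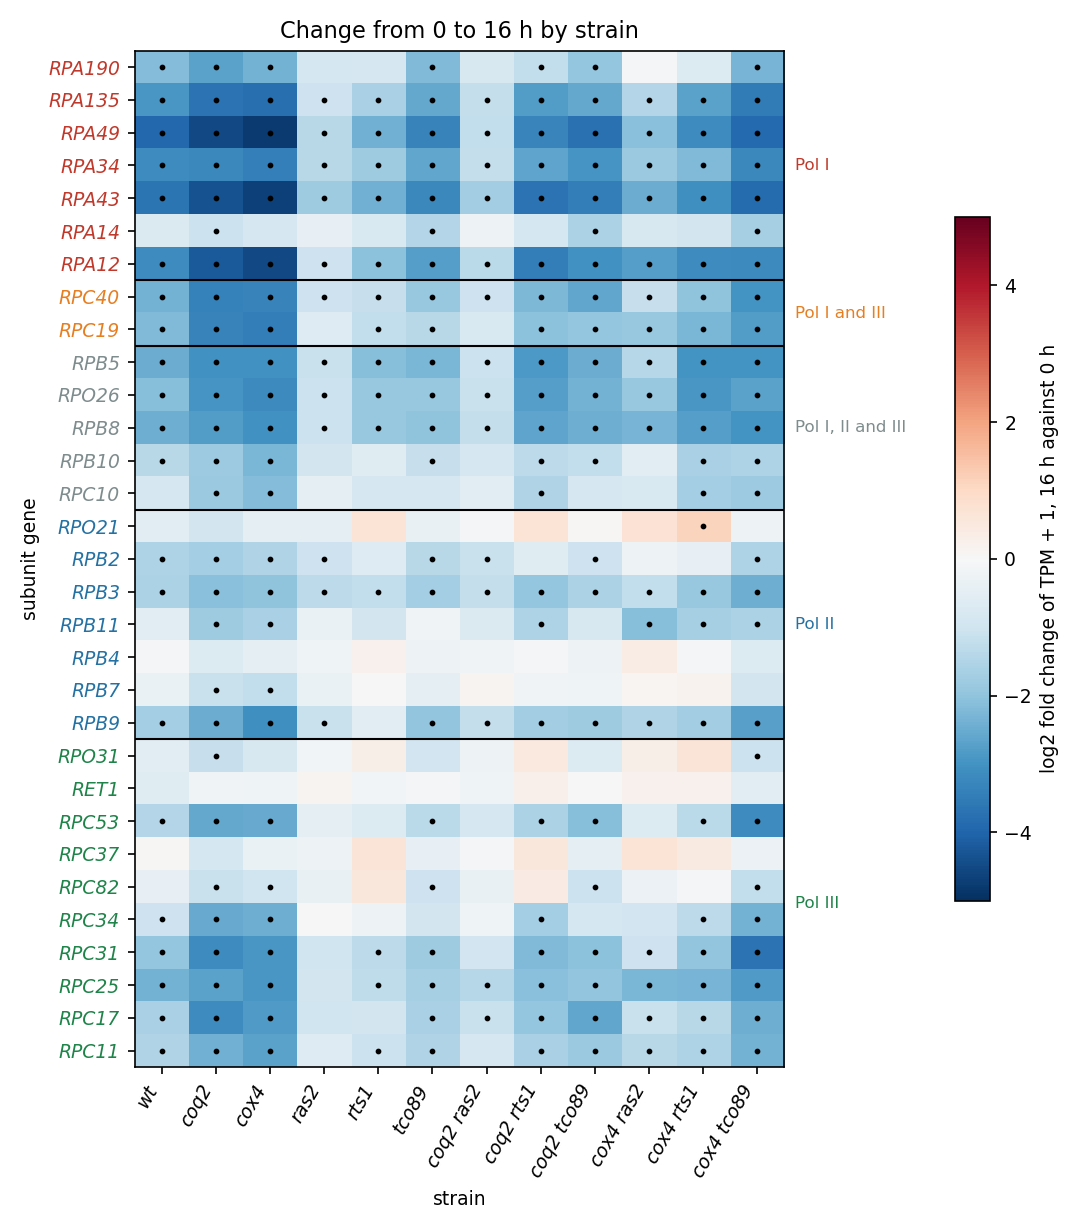
Log2 fold change of TPM + 1 from 0 to 16 h for the 31 subunit genes (rows, grouped and coloured by polymerase) in the 12 strains (columns); black dots mark genes past the threshold. Polymerase I and shared genes are dark blue in most strains and pale in ras2 and coq2 ras2, and RPB4, RET1, RPC37 and RPO21 carry no dot for a fall in any strain.

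The balance between polymerases can be read within a library, where the scale of TPM cancels. The median TPM of the 7 polymerase I genes divided by that of the 7 polymerase II genes was 0.464 to 0.798 over the 24 libraries of 0 h, with a median of 0.576. At 12 h it was 0.128 to 0.641 (median 0.265) and at 16 h 0.111 to 0.537 (median 0.181, 23 libraries). At 16 h the highest library was of coq2 ras2 and the lowest of coq2 rts1. The matching ratio of polymerase III to polymerase II showed no such step, with medians of 0.344, 0.424 and 0.336 at the 3 times. In wt it was 0.361 and 0.373 at 0 h and 0.426 and 0.366 at 16 h. The larger median fall of polymerase III than of polymerase II in wt at 16 h was thus not seen in this ratio.

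**Figure D3:**
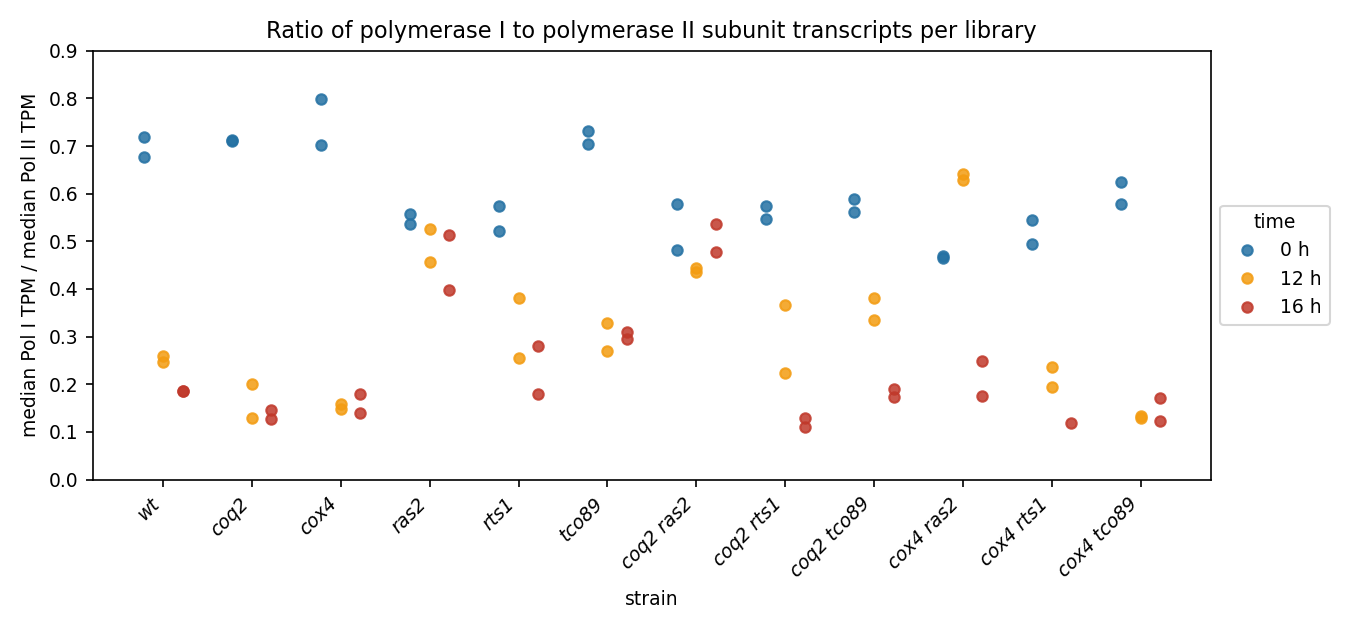
Median TPM of the polymerase I genes over median TPM of the polymerase II genes, 1 point per library, by strain and time. The 16 h points lie at 0.111 to 0.537, and those of ras2 and coq2 ras2 lie closest to their own 0 h points.

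Growing cells of the single mutants differed little from the wild type. At 0 h no subunit was called by limma in coq2, cox4, ras2, rts1 or tco89 against wt, where 0.277%, 0.832%, 4.84%, 2.69% and 1.61% of all genes were called. At an unadjusted p under 0.05 the numbers were 0, 4, 19, 15 and 0 of 31, so the small differences lay in ras2 and rts1, with medians of -0.34 and -0.28 on the log2 scale. All comparisons with wt share its libraries.

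Some subunit transcripts were lower in the electron transport chain mutants than in wt after the shift, and the number depended on the scaling. At 16 h 7 of 31 were lower in coq2 than in wt, where 12.3% of all genes were: RPC34, RPC17, RPC31 and RPC53 of polymerase III, the platform genes RPC40 and RPC19, and RPB11. RPC34 held 8.13 and 6.45 TPM in coq2 and 20.01 and 22.3 TPM in wt (-1.42 ± 0.15, adjusted p = 5.4e-11), and RPC17 held 4.13 and 3.76 TPM against 15.4 and 13.0 TPM (-1.62 ± 0.22, adjusted p = 4.9e-08). No polymerase I gene passed, though the mean TPM of each was lower in coq2 than in wt. RPA135 held 3.55 and 3.58 TPM against 7.37 and 7.44 TPM, more than 2-fold apart in TPM but not in log2(TPM + 1). After median-ratio scaling RPC34 and RPC17 alone were lower (3.26% of all genes), and the median over the 31 genes went from -0.81 to -0.42. In cox4 7 were lower (9.52% of all genes), namely RPB11, RPB9, RPC34, RPC17, RPC11, RPC10 and RPA12; RPB11, for example, held 78.9 and 75.8 TPM against 157 and 175 TPM (-1.09 ± 0.12, adjusted p = 4.3e-10). None of these passed after median-ratio scaling (3.52% of all genes). Without the second cox4 library of 16 h, in the table's column order, 3 were lower; the other one, with COX4 at 10.8 TPM, left 10 when it was left out.

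At 12 h 4 were lower in coq2, RPA135, RPA12, RPC82 and RPC34 (4.37% of all genes), and 1 in cox4, RPA12 (2.43%), with none left in either after median-ratio scaling (1.53% and 1.34%). The coq2 count was 1 without the second coq2 library of 12 h, in which RPA135 held 2.74 TPM against 6.40 TPM in the first. RPA12 passed no longer in cox4 without the first wt library of 12 h, when none was called, or without the second cox4 library, when RPA43 was called lower in its place.

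Of the 5 single deletions, ras2 had the most subunits called against wt at 16 h, and 5 of these 10 were polymerase I genes. At 16 h 10 of 31 subunits were higher in ras2, where 7.37% of all genes were, and after median-ratio scaling the count was again 10 (7.56%). They were 5 of the 7 polymerase I genes, RPC25 and RPC11 of polymerase III, the platform gene RPC19, and the common genes RPB5 and RPB8. RPA49 held 24.8 and 23.5 TPM in ras2 against 4.27 and 5.23 TPM in wt (2.14 ± 0.24, adjusted p = 4.2e-10), RPA12 held 59.1 and 59.0 against 16.1 and 13.7 TPM (1.92 ± 0.24, adjusted p = 5.8e-09), and RPA135 held 22.8 and 20.8 against 7.37 and 7.44 TPM (1.44 ± 0.17, adjusted p = 1.5e-09). RPA34 and RPA43 were higher by 1.42 and 1.31 on the log2 scale. RPA190 was higher by 0.94 in log2(TPM + 1), just short of the threshold. Its TPM themselves, 10.1 and 9.37 against 4.52 and 4.67, were slightly more than 2-fold apart.

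The median difference was 1.42 for polymerase I, 0.42 for polymerase III and -0.04 for polymerase II, against -0.03 over all genes. No polymerase II subunit was called. Among the 23 genes for general polymerase II factors 8 were lower in ras2, where 7.75% of all genes were, with a median of -0.74. Leaving out 1 library at a time left 7 to 9 subunits higher. Without the second ras2 library RPC25, RPC11 and RPB5 passed no longer and RPC37 was called lower; without any of the other libraries RPC25 or RPB8 dropped out.

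At 12 h the ras2 strain differed in both directions, with RPA49 and RPA12 higher (1.08 and 1.04) and RPC37 and RPC82 lower (-1.53 and -1.17), where 16.9% of all genes were called. RPC37 held 16.5 and 15.4 TPM in ras2 and 50.3 and 45.7 TPM in wt. RPA49 passed no longer without the second ras2 library of 12 h, and RPA12 not without the first ras2 or the second wt library. In rts1 the same pair of polymerase III genes was lower at 12 h, RPC37 by -1.19 and RPC82 by -1.07 (14.2% of all genes were lower); RPC37 held 15.6 and 26.6 TPM, and without the first of these libraries neither passed.

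In rts1 at 16 h 6 subunits were higher than in wt, where 6.56% of all genes were: RPA190, RPA135, RPA49 and RPA34 of polymerase I, and RPO21 and RPB9 of polymerase II. RPO21 held 58.6 and 56.2 TPM in rts1 and 29.1 and 26.1 TPM in wt, groups far apart (1.03 ± 0.10, adjusted p = 1.1e-11). All 6 differences lay between 1.03 and 1.1 on the log2 scale, and none passed 2-fold after median-ratio scaling (4.8%). Leaving out 1 library at a time left 4 to 6 of 31 higher, and any of the 6 but RPA190 could drop out. In tco89 RPA12 and RPB11 were higher at 12 h (1.07 and 1.01; 7.08% of all genes), neither with median-ratio scaling (4.87%) nor without the tco89 library in which RPA12 held 43.7 TPM; without either wt library 1 of them passed. At 16 h RPC19 was higher in tco89, with 93.6 and 94.6 TPM against 42.1 and 49.4 TPM (1.03), and RPA14 lower, with 38.95 and 36.6 against 84.3 and 85.1 TPM (-1.14), where 10% of all genes were called. RPC19 passed no longer without the wt library with 42.1 TPM.

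**Figure D4:**
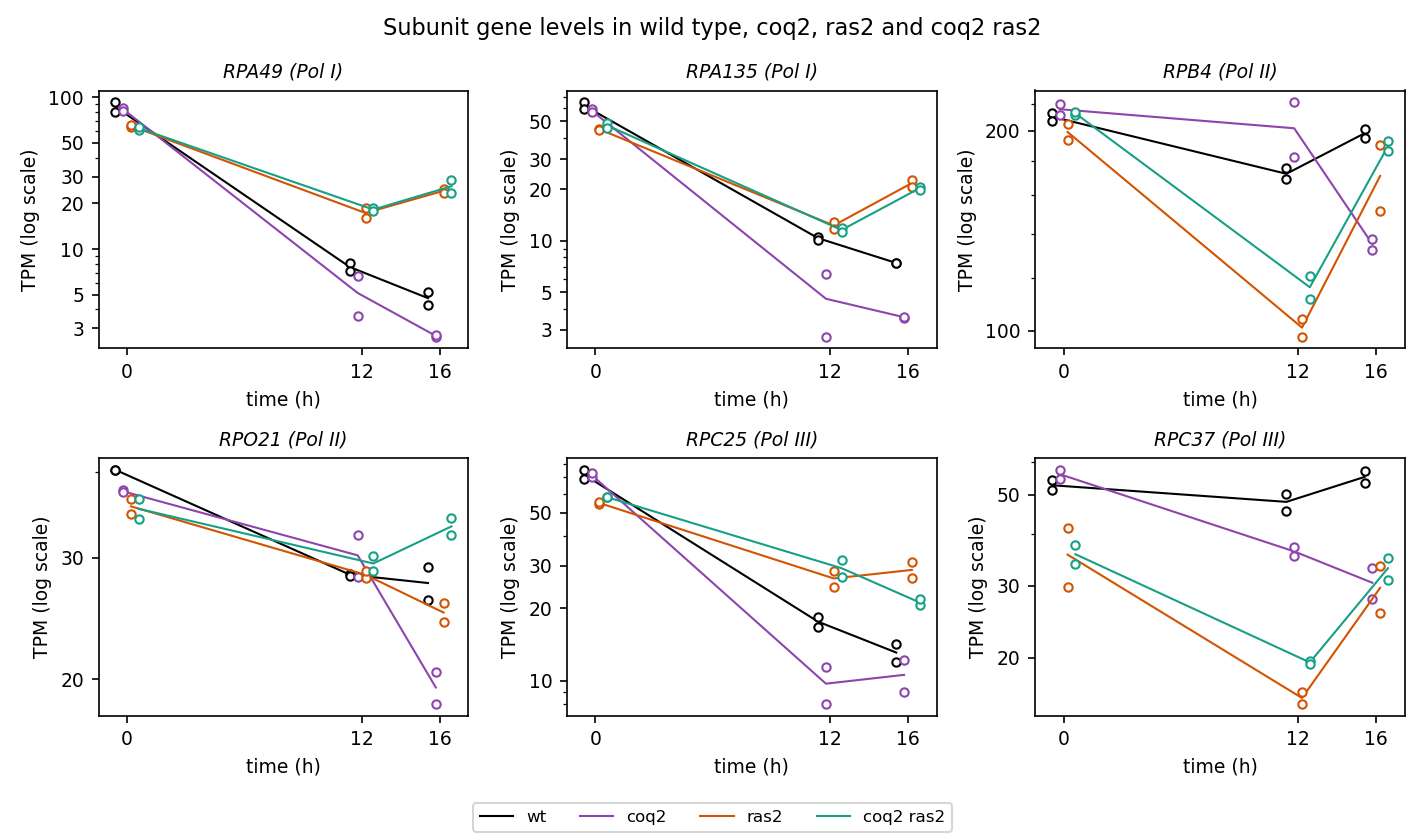
TPM (log axis) of 6 subunit genes against hours in wt, coq2, ras2 and coq2 ras2; circles are libraries, set slightly apart in time, and lines join the group means. RPA49 and RPA135 of polymerase I end higher in ras2 and coq2 ras2 than in wt and coq2. RPC37 and RPB4 dip at 12 h in ras2 and coq2 ras2, and RPB4 dips in wt as well.

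The double mutants were compared with the electron transport chain mutant from which they differ by the second deletion, so the 3 comparisons with coq2 share its libraries, as do those with cox4. At 0 h limma called no subunit in coq2 ras2, coq2 rts1, coq2 tco89, cox4 rts1 or cox4 tco89, where 4.06%, 3.71%, 1.02%, 3.23% and 1.16% of all genes were called; at an unadjusted p under 0.05 the numbers were 11, 21, 6, 21 and 9. In cox4 ras2 5 were lower at 0 h, namely RPA190, RPA49, RPA34 and RPA43 of polymerase I and RPC34 (-1.04 to -1.26; 3.99% of all genes). From 0 to 16 h the polymerase I median then moved by -1.85 in cox4 ras2 and by -3.76 in cox4, a difference that was not tested.

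By 16 h coq2 ras2 stood above coq2 in most subunits. Of the 31, 20 were higher, where 19.1% of all genes were, and 16 with median-ratio scaling (10.9%), which took away RPC53, RPB8, RPB10 and RPC10. RPA49 held 23.2 and 28.6 TPM in coq2 ras2 and 2.65 and 2.71 TPM in coq2 (2.86 ± 0.24, adjusted p = 8e-14). RPA135 held 20.8 and 19.9 against 3.55 and 3.58 TPM (2.23 ± 0.17, adjusted p = 5.1e-15), and RPC19 held 98.1 and 99.3 against 24.4 and 19.0 TPM (2.14 ± 0.12, adjusted p = 1e-19). The median difference was 2.23 for polymerase I, 0.72 for polymerase II and 1.11 for polymerase III, against 0.30 over all genes. RPA14 was the one polymerase I gene that did not pass (-0.03), and RET1 and RPC37 were among the other subunits that did not.

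In cox4 ras2 11 were higher than in cox4 at 16 h, where 10.8% of all genes were: RPA190, RPA135, RPA49, RPA43, RPO21, RPB7, RPB9, RPC53, RPC11, RPC40 and RPB10. With median-ratio scaling 9 were (9.19%), without RPA43 and RPC11, and leaving out 1 library at a time gave 9 to 13. RPA49 held 10.7 and 9.35 TPM against 3.46 and 1.83 TPM (1.63), under the level of coq2 ras2. RPO21 held 60.9 and 63.3 TPM against 25.7 and 23.7 TPM (1.30), and RPB7 held 172 and 179 against 62.6 and 60.3 TPM (1.5). The library ranges of the polymerase II genes RPO21 and RPB7 did not overlap, which adds no support for genes already called.

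At 12 h 10 subunits were higher in coq2 ras2 (13.8% of all genes) and 7 in cox4 ras2 (8.45%), with RPA12 at the head of both: 44.4 and 44.3 TPM in coq2 ras2 against 11.6 and 5.74 TPM in coq2 (2.30), and 49.2 and 47.3 TPM in cox4 ras2 against 11.3 and 6.77 TPM in cox4 (2.33). RPA135, RPA49, RPA43, RPC25, RPC19 and RPB8 were higher in both strains, and RPB11, RPC17 and RPO26 in coq2 ras2.

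**Figure D5:**
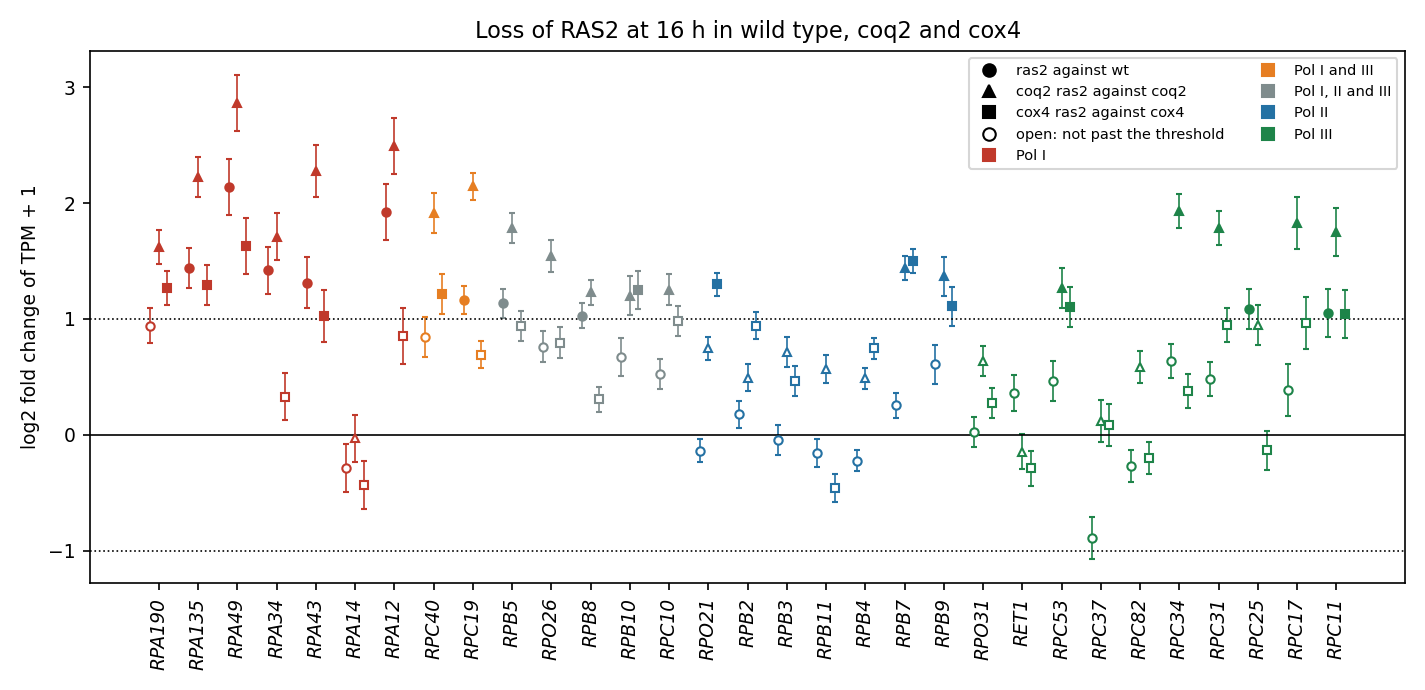
Log2 difference of TPM + 1 at 16 h for the 31 subunit genes in ras2 against wt, coq2 ras2 against coq2 and cox4 ras2 against cox4; bars are the standard error from limma, open symbols did not pass and dotted lines mark 2-fold. RPA49 lies at 2.14, 2.86 and 1.63 in the 3 comparisons, and RPA14 lies near or below 0.

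The rts1 deletion went with higher RPO21 and RPB7 in both backgrounds. At 16 h 5 subunits were higher in coq2 rts1 than in coq2, where 10.8% of all genes were: RPO21, RPB7, RPO31, RPC82 and RPA190. RPO21 held 55.7 and 53.6 TPM against 20.5 and 18.4 TPM (1.44 ± 0.10, adjusted p = 4.2e-16), RPB7 held 183 and 139 against 71.9 and 58.4 TPM (1.29 ± 0.11, adjusted p = 7.3e-14), and RPO31 held 15.6 and 14.7 against 5.33 and 5.33 TPM (1.35 ± 0.13, adjusted p = 5.6e-12). These 3 passed with median-ratio scaling as well, and RPA190 passed no longer without the second coq2 rts1 library. In cox4 rts1, with a single library at 16 h, which held COX4 at 8.57 TPM and whose spread is taken from the other groups, RPO21, RPB7 and RPB9 were higher than in cox4 (11.3% of all genes): RPO21 held 72.0 TPM against 25.7 and 23.7 TPM (1.51 ± 0.12), and RPB7 held 193 against 62.6 and 60.3 TPM (1.63). Without the cox4 library that held COX4 at 10.8 TPM 7 were higher, and RPB9 passed no longer without the other. At 12 h RPA12 and RPC25 were higher and RPC37 lower in coq2 rts1 (1.08, 1.01 and -1.12; 15% of all genes were called), RPA12 and RPC25 not without the second library of either strain and RPC37 not without the first coq2 rts1 library. RPC37 was lower in cox4 rts1 at 12 h too (-1.35; 12.2%), with 15.3 and 11.8 TPM against 35.7 and 35.6 TPM.

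In the tco89 doubles the calls were higher in coq2 tco89 and lower in cox4 tco89. In TPM their counts were near or under the shares of all genes. In coq2 tco89 at 12 h 8 subunits were higher than in coq2, where 21.2% of all genes were, and with median-ratio scaling 4, RPA43, RPA12, RPC25 and RPC19 (6.99%). At 16 h RPA12, RPB11, RPC34 and RPC19 were higher (16.4%), none of them with median-ratio scaling (4.56%). RPB11 and RPA12 each dropped out without 1 of the coq2 tco89 libraries. RPC19 held 55.8 and 57.1 TPM against 24.4 and 19.0 TPM, and without the first coq2 library 7 subunits were higher. In cox4 tco89 RPC17 alone was lower than in cox4 at 12 h (-1.17; 4.23%), not without the second cox4 tco89 library, and RPA14 and RPC53 were lower at 16 h (-1.29 and -1.14; 9.16%). RPC53 held 3.77 and 2.00 TPM in cox4 tco89 and 6.61 and 8.08 TPM in cox4, and it passed no longer without the library with 2.00 TPM, when RPA12 and RPB10 were higher.

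Whether the course from 0 to 16 h itself differed from that of wt was tested by the interaction of strain and time, all 11 comparisons sharing the wt libraries. In ras2 13 subunits fell less than in wt, where 10.3% of all genes were so called: 6 polymerase I genes (RPA190, RPA135, RPA49, RPA34, RPA43 and RPA12), RPC34, RPC25, RPC40, RPC19, RPB5, RPO26 and RPB8. The difference was 2.54 ± 0.34 for RPA49 (adjusted p = 3.5e-08). In coq2 ras2 11 fell less (8.38%), the same 6 polymerase I genes with RPC40, RPC19, RPB5, RPO26 and RPB8, and RPA49 differed by 2.68 ± 0.34 (adjusted p = 1e-08). In cox4 ras2 9 fell less or rose, and RPB11 fell more, by -1.60 (20.8% of all genes called). RPA190 differed by 2.14, RPB2 by 1.31 and RPO21, which stood higher at 16 h than at 0 h, by 1.25.

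In rts1 10 fell less or rose (8.69% of all genes), but 4 with median-ratio scaling (3.94%). In coq2 rts1 the changes of RPO21 (1.21) and RPO31 (1.06) lay above those in wt (5.6%), RPO31 not without the first wt library of 0 h. Both genes stood at higher TPM at 16 h than at 0 h in coq2 rts1. Without the second wt library of 0 h, or without the first coq2 rts1 library of 16 h, RPB2 and RPA190 fell less as well, which makes 4, and RPB11 fell more. By the same test in cox4 rts1 RPA190 and RPB2 fell less, RPO21 and RPO31 rose where they did not in wt, and RPB11 fell more (-1.13, with 15.1% of all genes called). These too rest on the single 16 h library with COX4 at 8.57 TPM. For coq2 and cox4 8 and 11 fell more than in wt (12.2% and 10.3% of all genes), and 2 and 5 with median-ratio scaling (4.06% and 5.29%), RPC34 and RPC17 being those in coq2. In cox4 tco89 RPB11, RPC53, RPC34 and RPC31 fell more (19.4%), and RPC53 and RPC31 with median-ratio scaling (5.05%). In tco89 and coq2 tco89 limma called none (10.9% and 8.78% of all genes), with 8 each at an unadjusted p under 0.05.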

How the data were processed

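Total RNA of 71 samples was made into libraries with a stranded poly(A) mRNA kit and Ribo-Zero depletion for Illumina sequencing, per the labels' protocols. The authors deposited a table of TPM for 5803 genes (a second file was identical to it and was not used), in which each library sums to between 1000003 and 1000010 and no value is under 0.1; read depth is unknown, so no counting interval is given. The submitters' processing notes name sacCer3, Salmon 0.9.1 and bcl2fastq 2.20.0.422 without saying what each did. The labels call the samples technical replicates, so p-values measure only the spread between such libraries. No pair of libraries was identical.

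From the TPM, log2(TPM + 1) was fitted with limma 3.58.1 in R 4.3.3, with 1 mean for each of 36 groups, 35 residual degrees of freedom and an intensity trend. A gene was tested where 2 or more libraries held 1 TPM or more (37 genes were not). Benjamini-Hochberg adjustment ran over all genes within each of 58 comparisons, and the code was tested on simulated data. Alternatives were pseudocounts of 0.1 and 5, no filter or a mean of 5 TPM, median-ratio scaling (factors 0.65 to 1.319), quantile normalization, no trend, fits on the compared groups alone, classes by symbol letter, and leaving out each library.

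The subunit genes and the lists of initiation factors, assembly factors, regulators and cell type markers were chosen with earlier results of these data known. The text names every subunit; from each list it names up to 4 called genes with the largest change in wt from 0 to 16 h, any called the other way, and MAF1, DOT6, TOD6 and STB3. Sporulation genes (9) summed to 57.9 to 127 TPM. Positions and sequences are from RefSeq's R64 genome and annotation; all 31 genes matched by symbol, and a blastn 2.17.0 search found 0 near copies.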

Additional observations from a re-analysis of the deposited data

Results flagged for a closer look

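The results here are those in which the change from 0 to 16 h in a strain differed from that of wt by the interaction test in limma (adjusted p under 0.05 and at least 2-fold), each given as the number of the 31 subunits. There were 8 subunits in coq2 (12.2% of all genes in that direction) and 11 in cox4 (10.3%), all with a larger fall than in wt. There were 13 in ras2 (10.3%), 10 in rts1 (8.69%), 11 in coq2 ras2 (8.38%) and 2 in coq2 rts1 (5.6%), all with a smaller fall or a rise. In cox4 ras2 there were 10 and in cox4 rts1 5, in both of which RPB11 alone fell more than in wt. In cox4 tco89 there were 4 (19.4%), all with a larger fall. For cox4 ras2 20.8% of all genes were called in either direction. The count of coq2 rts1 was near the share of all genes, and that of cox4 tco89 was under it. The count of cox4 rts1, which rests on a single library at 16 h, was near the share given above. What lies behind these differences was not tested, and all of them share the wt libraries.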

How the results depend on the processing

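No paired analysis was possible because the columns of the table carry no replicate number. None of the class medians changed sign under the alternatives run. Of the single subunits in wt, RPB4 at 16 h and RPB7, RET1, RPC37 and RPC82 at 12 h, none of them called, changed sign with median-ratio scaling, and RPB11, RPC34 and RPC11 at 12 h and RPC34 at 16 h lost their call. The order of polymerases II and III turns by symbol letter. With a pseudocount of 5, median-ratio scaling and quantile normalization, in that order, the subunits called at 16 h against wt were 3, 2 and 2 in coq2 (7 as reported) and 4, 0 and 0 in cox4 (7); over the 5 single mutants they were 2, 6 and 5 at 12 h (13) and 15, 13 and 14 at 16 h (32). Over the 6 double mutants at 0 h a pseudocount of 5 gave 3 (5). The share of all genes that were lower at 16 h shrank too with median-ratio scaling. It went from 12.3% to 3.26% in coq2 and from 9.52% to 3.52% in cox4. Shares of all genes under the other settings, and for the sums over strains, are not given here, so these counts do not single out the subunits. The polymerase I median in wt from 0 to 16 h (-3.13) was -2.84 with a pseudocount of 5 and -2.82 with median-ratio scaling. The polymerase II median (-0.53) was -0.23 with median-ratio scaling and -1.56 by symbol letter. The polymerase III median (-1.23) was -1.08, -0.93 and -1.01 under the same 3 settings and -1.5 by symbol letter. The cause was not tested. Leaving out 1 library at a time gave 21 to 22 subunits at 12 h and 20 to 22 at 16 h in wt, 220 to 226 over the 11 mutants, 5 to 9 for coq2 and 3 to 10 for cox4 against wt at 16 h, 10 to 14 and 28 to 35 over the single mutants at 12 and 16 h, 4 to 7, 25 to 32 and 42 to 52 over the double mutants at 0, 12 and 16 h, and 72 to 82 for the interactions. It gave medians of -3.15 to -3.02, -0.64 to -0.53 and -1.28 to -1.08 for polymerases I, II and III. The single cox4 rts1 library of 16 h could not be left out. Depth is unknown, so precision at low TPM, as for RPA49 in coq2, could not be set from counts.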

Other observations

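DOT6, the PAC-binding repressor, was highest in wt at both late times. Its libraries ranged from 51.8 to 115 TPM at 0 h, from 82.9 TPM in cox4 ras2 to 456 TPM in wt at 12 h, and from 145 TPM in tco89 to 589 TPM in wt at 16 h. MAF1, the repressor of polymerase III, ranged from 30.1 TPM in cox4 to 116 TPM in tco89 at 12 h and from 22.7 TPM in cox4 to 102 TPM in tco89 at 16 h. Over all 71 libraries the spread between subunits was wide: the highest library was 54.5 times the lowest for RPA49 and 45.7 times for RPA43, and 2.68 and 2.63 times for RPB4 and RET1. The RPB4 level over that of RPO21, the stalk against the largest subunit of polymerase II, was 4.98 to 6.5 at 0 h and ran at 16 h from 2.52 in cox4 rts1 to 7.87 in a ras2 library.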
